A study of Mus musculus and Homo sapiens with 12 samples.

Results

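Small nucleolar RNA (snoRNA) host genes are long noncoding genes whose introns carry snoRNAs, and 10 of them are described here in blood progenitors that had lost or kept DDX21, an RNA helicase: SNHG1, SNHG3, SNHG4, SNHG5, SNHG6, SNHG8, SNHG12, SNHG15, GAS5 and ZFAS1. They were taken by name from the gene symbols of the deposited tables and followed by Ensembl identifier in the raw counts. The mouse data gave 8 of them among 55487 genes and the human data 9 among 78932, with 7 in both; SNHG6 was matched in the mouse only, and SNHG1 and SNHG3 in the human only.

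Mouse LK cells, which lack lineage markers and carry Kit, were sorted from fetal liver at embryonic day E13.5. The WT group had the genotype Ddx21f/f, with loxP-flanked Ddx21 alleles and no Cre, and the cKO group had Vav-Cre; Ddx21f/f, in which the Vav promoter drives Cre in blood cells. Human cells were differentiated towards blood stem cells from H1, a single human embryonic stem cell line, transduced with lentivirus shNC-mCherry (control hairpin) or lentivirus shDDX21-mCherry, and sorted 2 days later as CD34+, CD45+, CD43+ and hairpin-positive. Both mouse groups thus carry the flanked alleles, and both human groups carry a lentiviral hairpin and mCherry. Each group has 3 libraries of polyadenylated RNA. The labels do not say whether these came from separate embryos or cultures, so p-values measure only the spread between libraries, which may be technical.

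The mouse libraries held 21116079 to 23898130 counts and the human libraries 15289510 to 19798608. Mouse Ddx21 fell to 19.7% of WT and human DDX21 to 14.5% of shNC. Progenitor markers were present in every group: the summed level of 8 genes (among them KIT and CD34) was 1615 to 1654 CPM (a library-scaled count) in WT, 1764 to 1793 in cKO, 2161 to 2190 in shNC and 2066 to 2106 in shDDX21. Of these 8 genes 4 were called higher and 2 lower in the mouse, and 4 higher and 4 lower in the human cells. Markers of other cells also moved. In the mouse, hepatocyte markers (6 matched, none at 0 in every library) summed to 1.31 to 1.71 CPM in WT and 28.3 to 32.2 CPM in cKO, macrophage markers (7 matched) to 64.6 to 67.5 and 32.4 to 33.5 CPM, endothelial markers (8) to 79.7 to 99.8 and 118 to 138 CPM, and megakaryocyte markers (8) to 119 to 136 and 214 to 276 CPM. Of the 4 mouse macrophage markers tested, 3 were called lower and 1 higher. In the other 3 lists, 4 hepatocyte, 4 endothelial and 5 megakaryocyte markers were called higher and 0 lower. Mouse erythroid markers (9) summed to 1672 to 1735 CPM in WT and 1119 to 1181 CPM in cKO, although 4 of them were called higher and 3 lower. In the human cells the sums in shNC and shDDX21 were 1577 to 1597 and 1194 to 1210 CPM for erythroid markers (7 matched; 3 called higher, 2 lower), 1916 to 1969 and 1608 to 1628 for endothelial markers (8), 1912 to 1999 and 2104 to 2130 for megakaryocyte markers (6), 504.4 to 520.6 and 501.0 to 510.8 for macrophage markers (5), and 5.79 to 6.80 and 4.2 to 5.22 for 1 hepatocyte marker. Of the 5 human macrophage markers 4 were called lower and 1 higher (median log2 fold change -0.92), although the sums overlapped. Human endothelial markers gave 2 higher and 5 lower, and human megakaryocyte markers 3 and 2. Pluripotent markers summed to 137 to 150 CPM in WT and 205 to 234 in cKO (6 matched, with Sox2 at 0 in every library). Only 2 of these 6 were tested, with 1 called higher and 0 lower. The human pluripotent sums were 352 to 374 in shNC and 339 to 344 in shDDX21 (2 matched; 1 called higher, 1 lower). Progenitor, pluripotent, endothelial and hepatocyte sums thus moved in opposite directions in the 2 experiments. However, the human hepatocyte sum is 1 gene, and the progenitor and human pluripotent and endothelial lists held genes called in both directions. The part of these shifts in the values below was not tested, and in sorted bulk samples fewer cells of a type and less RNA per cell cannot be told apart.

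SnoRNAs are short nuclear RNAs that guide chemical modification of ribosomal RNA in the nucleolus: box C/D snoRNAs guide ribose methylation, and box H/ACA snoRNAs guide pseudouridylation. They are cut from the introns of a host transcript after splicing, so one transcript yields both a spliced RNA and its snoRNAs. The spliced RNA of several hosts, GAS5 the best known, is removed by nonsense-mediated decay when ribosomes meet an early stop codon, and host transcripts often start with a run of pyrimidines, as ribosomal protein mRNAs do. GAS5 and ZFAS1 are also studied as regulators in their own right, and DDX21 is a nucleolar helicase known to bind ribosomal RNA and snoRNAs.

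The cargo of 6 mouse hosts is shown because the counts below are those of the hosts and not of these RNAs. The sequences are GENCODE M21 transcripts (GRCm38), 5′ to 3′ as DNA letters. Capitals mark the letters TGATGA and the last CTGA in box C/D snoRNAs, which match the C and D boxes, and the last ACA in box H/ACA snoRNAs.
Snord50a, in Snhg5: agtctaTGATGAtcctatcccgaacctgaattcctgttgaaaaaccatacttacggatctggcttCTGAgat
Snord50b, in Snhg5: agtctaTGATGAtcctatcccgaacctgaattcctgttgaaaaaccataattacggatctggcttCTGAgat
Snord47, in Gas5: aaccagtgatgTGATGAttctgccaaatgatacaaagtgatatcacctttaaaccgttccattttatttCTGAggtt
Snord12, in Zfas1: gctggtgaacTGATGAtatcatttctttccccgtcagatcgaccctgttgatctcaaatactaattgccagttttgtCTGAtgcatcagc
Snord99, in Snhg12: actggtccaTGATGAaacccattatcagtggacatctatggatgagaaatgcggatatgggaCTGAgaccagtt
Snora24, in Snhg8: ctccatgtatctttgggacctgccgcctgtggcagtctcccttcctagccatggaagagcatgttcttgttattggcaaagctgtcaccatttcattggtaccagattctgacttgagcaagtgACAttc
Snora9, in Snhg15: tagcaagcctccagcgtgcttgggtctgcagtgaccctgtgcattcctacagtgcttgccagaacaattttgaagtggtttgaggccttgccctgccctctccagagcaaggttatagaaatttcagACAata

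These lie at chr9:88521529-88521600 and chr9:88521797-88521868 (Snord50a and Snord50b, minus strand), chr1:161038082-161038158 (Snord47, plus), chr2:167065276-167065365 (Snord12, plus), chr4:132310691-132310764 (Snord99, plus), chr3:123507937-123508066 (Snora24, minus) and chr11:6528033-6528165 (Snora9, minus). Of 28 genes shorter than 300 bases inside the 8 mouse hosts, 26 had 0 counts in all 6 libraries. Snord87, in Snhg6, had 11 counts in WT and 8 in cKO in all, and Gm23201, in Zfas1, had 749 and 685. Of 25 such genes inside the human hosts, 21 had 0 counts; the one that passed the filter on low counts was SNORA73B, inside SNHG3. The 7 snoRNAs printed above lie in bases that the annotation also counts as host exon, and how reads shared by 2 genes were handled is not given in the sources used here, so a 0 says nothing on the level of a snoRNA.

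In the mouse, 6 of the 8 host genes passed the test (edgeR's quasi-likelihood test, Benjamini-Hochberg adjusted p under 0.05 over all genes), against 36.5% of the 14918 genes tested. Of these, Snhg4, Snhg5, Snhg12, Gas5 and Zfas1 fell (15.8% of all genes were called lower) and Snhg15 rose (20.7% were called higher). All 8 passed the filter on low counts. The same 6 had no overlap between the 3 WT and the 3 cKO libraries, a pattern shown by 49.0% of genes. The median log2 fold change was -0.37 over the 8 hosts and 0.00059 over all genes.

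Among the 9 human hosts, 7 passed the same test, against 52.7% of 20188 genes. SNHG1, SNHG4, SNHG5, SNHG12 and SNHG15 fell (27.4% of genes were called lower), and SNHG8 and GAS5 rose (25.3% were called higher). SNHG3 and ZFAS1 were not called. All 9 passed the filter on low counts, and 8 of them had no overlap between the shNC and shDDX21 libraries, against 57.4% of genes. The median over the 9 hosts was -0.08, and over all genes 0.0052. The share called was thus above the background in both experiments, and the background itself was large. Because the hosts were chosen with earlier results of these data known, these shares are a description and not a test of the class. Permuting 3 libraries against 3 exactly would give no two-sided p under 0.1, and every p below therefore comes from the fit across all genes.

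**Figure D1:**
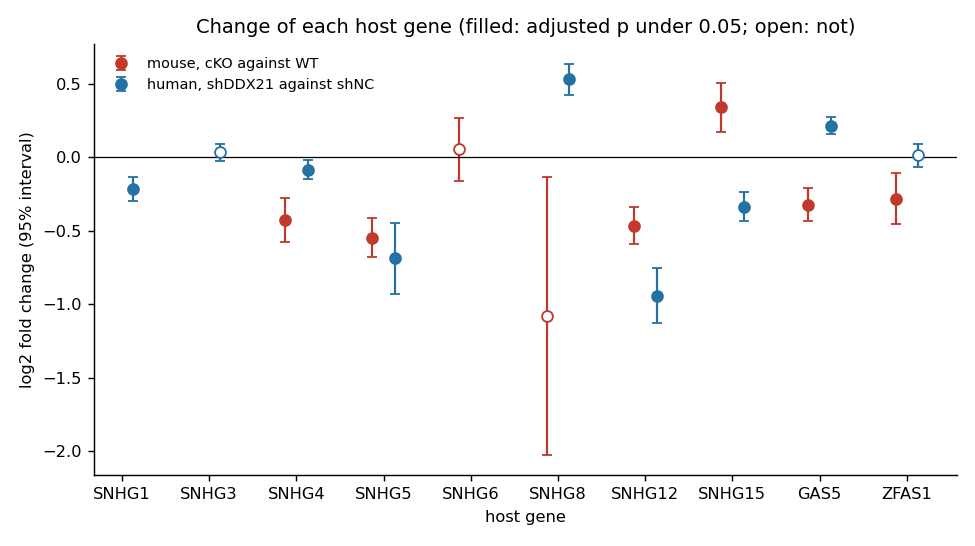
Log2 fold change of each host gene (vertical axis) with its 95% interval, for the mouse knockout (red) and the human knockdown (blue); filled points passed the test and open points did not. SNHG5 and SNHG12 lie below 0 in both, while SNHG15 and GAS5 lie on opposite sides, with the widest interval at mouse Snhg8.

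Among the hosts of box C/D snoRNAs, Gas5 (ENSMUSG00000053332; GRCm38 chromosome 1, 161034422 to 161038539, plus strand) had the highest counts. It stood at 366.8, 374.0 and 389.7 CPM in WT and at 283.7, 316.3 and 304.7 CPM in cKO. Every cKO library was below every WT library, with means of 376.9 ± 11.7 and 301.6 ± 16.5 CPM (SD, n = 3 each). The log2 fold change was -0.32 (SE 0.049, edgeR adjusted p 0.00216), which leaves 80.0% of the WT level.

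Human GAS5 (ENSG00000234741; chromosome 1, 173851424 to 173868940, minus strand, hg38 as named in the submitters' processing notes) went the other way. It had 147.8, 153.2 and 148.1 CPM in shNC and 175.9, 171.6 and 173.1 CPM in shDDX21. The groups did not overlap, and the level in shDDX21 was 116% of shNC, a log2 fold change of 0.21 (SE 0.029, edgeR adjusted p 2.47e-09).

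Snhg5 carries the Snord50 pair printed above (chromosome 9, 88495268 to 88523562, minus strand). It had 178.1, 179.0 and 182.5 CPM in WT and 112.9, 129.9 and 126.4 CPM in cKO. This is 68.4% of WT, the lowest share among the 5 mouse hosts that fell, with a log2 fold change of -0.55 (SE 0.056, edgeR adjusted p 0.000325). Human SNHG5 had the fewest counts of the human hosts, with 148 to 206 counts per shNC library and 90 to 132 per shDDX21 library. The shNC libraries were at 9.71, 9.63 and 11.6 CPM and the shDDX21 libraries at 6.75, 7.33 and 5.11 CPM. The means were 10.3 ± 1.09 and 6.40 ± 1.15 CPM (SD, n = 3 each), which is 62.1% of shNC and a log2 fold change of -0.69 (SE 0.12, edgeR adjusted p 1.13e-06). SNHG5 thus fell in both experiments.

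Zfas1 (chromosome 2, 167062934 to 167065862, plus strand), which carries Snord12, had 97.3, 97.8 and 104.7 CPM in WT and 74.1, 90.2 and 82.5 CPM in cKO. The groups did not overlap, at 82.3% of WT and a log2 fold change of -0.28 (SE 0.075, edgeR adjusted p 0.0233). Its call was the least firm of the 6: the adjusted p was 0.085 with scaling by total counts, 0.0627 with upper-quartile scaling, 0.0521, 0.0584 and 0.0563 without WT replicate 1, 2 or 3, and 0.0765 without cKO replicate 3. Human ZFAS1 had 77.5, 76.0 and 82.7 CPM in shNC and 81.9, 78.1 and 78.2 CPM in shDDX21. The 2 groups overlapped, and the log2 fold change was 0.01 with a 95% interval from -0.07 to 0.09 (edgeR adjusted p 0.819).

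Snhg6, the host of Snord87 (chromosome 1, 9941959 to 9944118, minus strand), had 17.2, 16.2 and 15.3 CPM in WT and 16.3, 18.5 and 15.7 CPM in cKO. The groups overlapped, and the log2 fold change of 0.05 had a 95% interval from -0.16 to 0.27 (edgeR adjusted p 0.681). Human SNHG1, whose introns carry a cluster of box C/D snoRNAs, had 83.2, 84.0 and 88.3 CPM in shNC and 76.2, 69.6 and 73.9 CPM in shDDX21. It fell to 85.9% of shNC without overlap, a log2 fold change of -0.22 (SE 0.04, edgeR adjusted p 3.00e-06). The mouse gene that GENCODE M21 names Snhg1 is outside the count of 8 because it was not matched by symbol. It had 3365 to 3718 counts in WT and 2932 to 3602 in cKO, at 82.9% of WT in CPM, with a log2 fold change of -0.27 (edgeR adjusted p 0.00906). The mouse gene named Snhg3 there had 0 to 2 counts in each library and was not tested. Of its exonic bases 86.3% also lie in exons of other genes, Rcc1 among them, so these counts say little on its level.

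**Figure D2:**
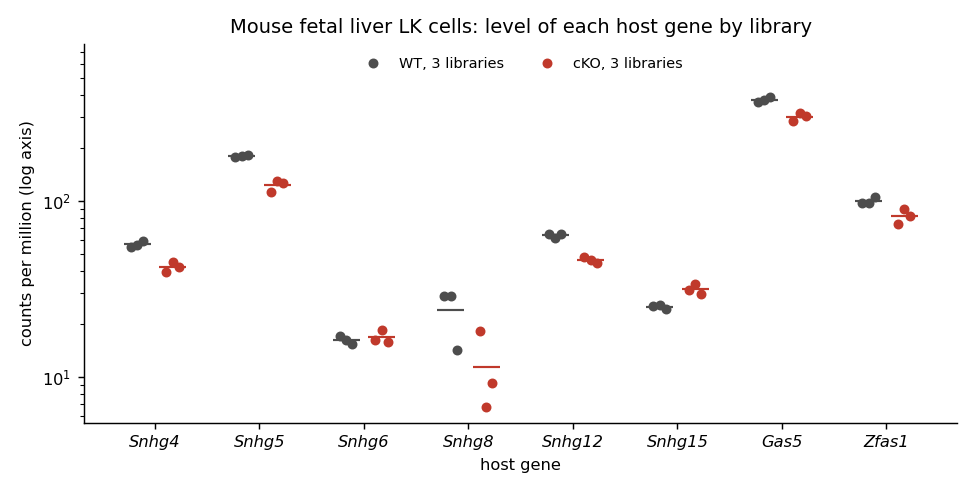
CPM of the 8 mouse host genes (log axis) in 3 WT libraries (grey) and 3 cKO libraries (red), with a bar at each mean; heights compare libraries within a gene, not genes of different length. Snhg4, Snhg5, Snhg12, Gas5 and Zfas1 separate downward, Snhg15 upward, and Snhg6 and Snhg8 overlap.

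Snhg12 carries both kinds of snoRNA, among them Snord99 (chromosome 4, 132308623 to 132311024, plus strand). It had 65.2, 61.3 and 64.6 CPM in WT and 48.1, 46.2 and 44.2 CPM in cKO, with a gap between the groups. The level in cKO was 72.5% of WT, a log2 fold change of -0.46 (SE 0.054, edgeR adjusted p 0.000629). Human SNHG12 (chromosome 1, 28578536 to 28583132, minus strand) had 17.9, 19.5 and 16.9 CPM in shNC and 9.72, 8.39 and 10.0 CPM in shDDX21. By estimate this was the deepest fall among the human hosts, to 51.8% of shNC, with a log2 fold change of -0.94 (SE 0.093, edgeR adjusted p 3.48e-14). Its 95% interval, -1.13 to -0.75, overlaps that of SNHG5, -0.93 to -0.45.

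Snhg4 is a host of the box H/ACA class (chromosome 18, 35553371 to 35558316, plus strand). It had 54.7, 56.2 and 58.9 CPM in WT and 39.7, 44.8 and 41.8 CPM in cKO, at 74.4% of WT. Its log2 fold change was -0.43 (SE 0.063, edgeR adjusted p 0.00187). Human SNHG4 differed far less between the groups, with 128.9, 131.9 and 132.3 CPM in shNC and 126.3, 119.8 and 124.2 CPM in shDDX21. It reached 94.2% of shNC and a log2 fold change of -0.08 (SE 0.032, edgeR adjusted p 0.0216). That call was lost with DESeq2 (adjusted p 0.0891), with upper-quartile scaling (0.714, at a log2 fold change of -0.02), without shNC replicate 3 (0.0510) and without shDDX21 replicate 2 (0.129).

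Snhg15, the host of Snora9 (chromosome 11, 6525591 to 6528779, minus strand), was the mouse host that rose. It had 25.3, 25.5 and 24.2 CPM in WT and 31.3, 33.9 and 29.7 CPM in cKO, 127% of WT, with a log2 fold change of 0.34 (SE 0.071, edgeR adjusted p 0.00867). Human SNHG15 fell, from 52.4, 52.2 and 51.1 CPM in shNC to 42.6, 39.5 and 41.2 CPM in shDDX21. It stood at 79.2% of shNC with a log2 fold change of -0.33 (SE 0.05, edgeR adjusted p 2.04e-08). In both species the libraries of the 2 groups did not overlap.

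Snhg8 carries Snora24 (chromosome 3, 123507552 to 123508404, minus strand). It had 28.9, 29.0 and 14.3 CPM in WT and 18.1, 6.72 and 9.28 CPM in cKO. WT replicate 3 lay below cKO replicate 1, so the groups overlapped, and the coefficient of variation was 35.2% in WT and 52.6% in cKO, where the other 7 mouse hosts had 1.28% to 9.80%. The mean in cKO was 47.3% of WT, but the log2 fold change of -1.08 had a 95% interval from -2.03 to -0.14 and did not pass the test (SE 0.4, edgeR adjusted p 0.0735). Human SNHG8 had 31.9, 34.1 and 34.7 CPM in shNC and 50.8, 46.2 and 47.8 CPM in shDDX21. It rose to 144% of shNC without overlap, a log2 fold change of 0.53 (SE 0.054, edgeR adjusted p 1.17e-13).

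The spread of Snhg8 went with a spread across the mouse libraries that touched GC-rich genes. Among 1210 genes whose longest transcript had 56.4% to 67.7% GC, the median log2 deviation from the group mean was 0.18, 0.10 and -0.27 in WT replicates 1, 2 and 3 and 0.29, -0.29 and -0.004 in cKO replicates 1, 2 and 3. Snhg8 deviated by 0.33, 0.33 and -0.66 in WT and by 0.77, -0.60 and -0.16 in cKO. Its own transcript had 45.7% GC, within the range of the mouse hosts (41.5% to 53.9%). Among 1209 genes with 44.3% to 46.7% GC, the medians were -0.013, -0.013 and 0.030 in WT and -0.034, 0.043 and -0.007 in cKO. Snhg15, the host with 53.9% GC, deviated by 0.02, 0.03 and -0.04 in WT and by -0.01, 0.10 and -0.09 in cKO. The part of GC content in the spread of Snhg8 was not tested. Snhg8 passed the test when WT replicate 3 and cKO replicate 2, in which GC-rich genes were lowest, were left out together (log2 fold change -1.06, edgeR adjusted p 0.0101), when a GC offset was fitted per library (-1.13, 0.0378), without WT replicate 3 alone (-1.35, 0.0279) and without cKO replicate 1 (-1.58, 0.00885). It also passed with no filter on low counts (0.0234) and with upper-quartile scaling (0.047), and over all alternatives its log2 fold change ran from -1.58 to -0.79 and its adjusted p from 0.00885 to 0.208. Without those 2 libraries 7 hosts were called, 6 lower and 1 higher, and likewise with the GC offset. The number of all genes called rose too. It was 5442 of 14918 in the main fit, 5828 without the 2 libraries, and 6987 of 14898 with the GC offset.

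**Figure D3:**
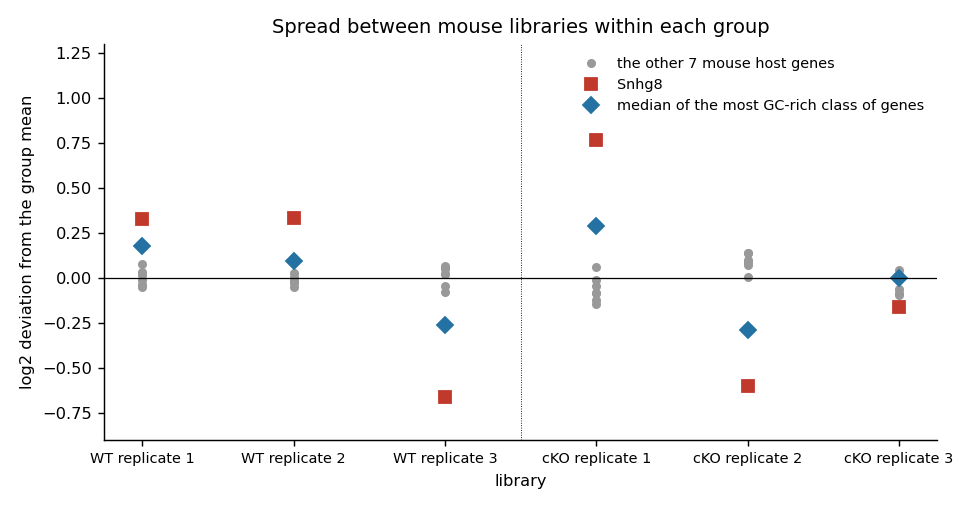
Log2 deviation of each mouse library from the mean of its group: Snhg8 (red squares), the other 7 hosts (grey) and the median of the most GC-rich class of 1210 genes (blue diamonds). Snhg8 and the GC-rich median are lowest in WT replicate 3 and cKO replicate 2, at -0.66 and -0.60 for Snhg8, while the grey points lie between -0.15 and 0.14.

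Human SNHG3, the host of SNORA73 genes, had 140.0, 143.0 and 143.5 CPM in shNC and 146.1, 145.0 and 145.0 CPM in shDDX21. The shDDX21 libraries lay above the shNC libraries by little, at 102% of their mean, and the log2 fold change of 0.03 had a 95% interval from -0.03 to 0.09 (edgeR adjusted p 0.383). With upper-quartile scaling it was 0.10 and passed the test (adjusted p 0.00299).

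**Figure D4:**
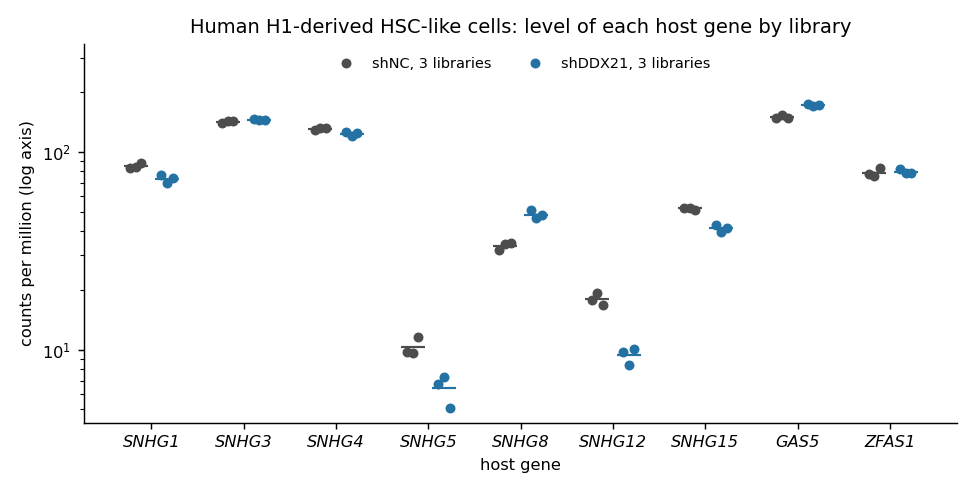
CPM of the 9 human host genes (log axis) in 3 shNC libraries (grey) and 3 shDDX21 libraries (blue), with a bar at each mean; heights compare libraries within a gene, not genes of different length. SNHG8 and GAS5 sit higher in shDDX21, SNHG12 and SNHG5 lower, and ZFAS1 overlaps.

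The 7 hosts measured in both species were compared directly, as the mouse minus the human log2 fold change, in an interaction fit over 10318 genes matched by symbol. Of the 7, 6 differed (edgeR's quasi-likelihood test, Benjamini-Hochberg adjusted p under 0.05), where 56.2% of all matched genes did. The experiments differ in species, cell source, and gene deletion against hairpin, and these cannot be told apart. SNHG15 differed by 0.68 (95% interval 0.50 to 0.85, adjusted p 1.94e-05) and GAS5 by -0.53 (-0.66 to -0.41, adjusted p 9.36e-06), with opposite signs in the 2 experiments. SNHG8 differed by -1.61 (-2.56 to -0.66, adjusted p 0.00785), a value that rests on the scattered mouse libraries. SNHG12 fell in both and differed by 0.48 (0.25 to 0.71, adjusted p 0.00198), the deeper fall being human. SNHG4 differed by -0.34 (-0.49 to -0.20, adjusted p 0.00103), with the deeper fall in the mouse. ZFAS1 differed by -0.29 (-0.49 to -0.09, adjusted p 0.0174), which was no longer called with scaling by total counts (-0.20, adjusted p 0.121). SNHG5 did not pass, at 0.14 with an interval from -0.18 to 0.46 (adjusted p 0.433), which does not show that the falls were equal.

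The levels of the hosts were also summed per library, as a description. In the mouse the 8 hosts summed to 833.4 to 854.0 CPM in WT and 624.2 to 686.5 CPM in cKO, with a clear gap. The 9 human hosts summed to 689.3 to 709.2 CPM in shNC and 685.5 to 716.2 CPM in shDDX21, which overlap. Gas5 made up 44.0% to 45.6% of the mouse sum in WT and 45.5% to 46.6% in cKO, and GAS5 20.9% to 21.8% of the human sum in shNC and 24.6% to 25.0% in shDDX21.

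Levels between genes were compared per kilobase of exon. In WT the order was Gas5 (100.2 ± 3.11 CPM per kb), Zfas1 (52.6 ± 2.15), Snhg5 (49.5 ± 0.634), Snhg8 (28.2 ± 9.92), Snhg12 (26.5 ± 0.856), Snhg6 (14.2 ± 0.812), Snhg4 (12.1 ± 0.457) and Snhg15 (9.42 ± 0.259), all SD with n = 3. Each host was above the next in all 3 libraries except Snhg8, which overlapped Snhg12. In cKO Snhg15 (11.9 ± 0.793) stood above Snhg4 (9.02 ± 0.553), whereas Snhg8 (13.3 ± 7.02) overlapped both Snhg6 above it and Snhg15 below it. In shNC the order was SNHG3 (34.8 ± 0.464), SNHG4 (29.3 ± 0.415), GAS5 (26.6 ± 0.544), SNHG1 (19.7 ± 0.642), SNHG15 (13.2 ± 0.175), ZFAS1 (7.80 ± 0.351), SNHG8 (4.89 ± 0.216), SNHG12 (3.94 ± 0.276) and SNHG5 (0.81 ± 0.0857), again in CPM per kb and with no overlap between neighbours. In shDDX21 GAS5 (30.8 ± 0.389) stood above SNHG4 (27.6 ± 0.736). The exon length in the tables joins all annotated exons, 12720 bases for human SNHG5 and 10093 for ZFAS1 against 3634 and 1901 in the mouse, so these levels are low per base where the annotation is long and are not compared between species.

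Several hosts share their locus with a protein-coding gene, so a neighbour's change was set beside that of the host. Znfx1, which lies head to head with Zfas1 and overlaps it on the other strand, fell in the mouse from 53.8 ± 0.997 CPM in WT to 40.4 ± 2.03 CPM in cKO (SD, 3 libraries each), a log2 fold change of -0.41 (edgeR adjusted p 0.0013), as Zfas1 did. Human ZNFX1 rose from 62.3 ± 2.82 to 102 ± 6.28 CPM (log2 fold change 0.71, edgeR adjusted p 3.20e-25), whereas ZFAS1 was at 0.01. At the GAS5 locus, mouse Zbtb37 was at 0.20 (edgeR adjusted p 0.0955) and human ZBTB37 at -0.03 (0.581), and neither passed the test. Zbtb37 did pass without cKO replicate 1 (0.0459) and with the GC offset (0.0491). RCC1, the exchange factor for the small GTPase RAN, overlaps SNHG3 on the same strand. It fell in the human cells (-0.73, 2.01e-26) and in the mouse (-0.69, 0.00668), while human SNHG3 was at 0.03.

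Inside SNHG3, the short gene SNORA73B had 210 counts in shNC and 107 in shDDX21 in all and fell (log2 fold change -1.03, edgeR adjusted p 1.01e-05). SNORA73B also lies within the interval of RCC1 on the same strand. SNHG3 was at 0.03 and RCC1 at -0.73. The differences between these genes, and the transcript that gave the SNORA73B reads, were not tested. SYNCRIP, an RNA-binding protein gene within 2000 bases of SNHG5, fell as its neighbour did (-0.44, 1.89e-18). Human SLC3A2, an amino acid transporter subunit that overlaps SNHG1 on the other strand, fell slightly (-0.11, 0.00112; not called with upper-quartile scaling, 0.237), and mouse Slc3a2 was at -0.18 (0.0742; called in 5 of 15 alternatives, with 0.0382 under RLE scaling, 0.0356 without WT replicate 3, 0.0209 without cKO replicate 1, 0.0036 with the GC offset and 0.0358 without both WT replicate 3 and cKO replicate 2). TRNAU1AP, beside SNHG12, was at -0.14 in the human cells (0.202) and at -0.04 in the mouse (0.681), where SNHG12 fell in both.

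**Figure D5:**
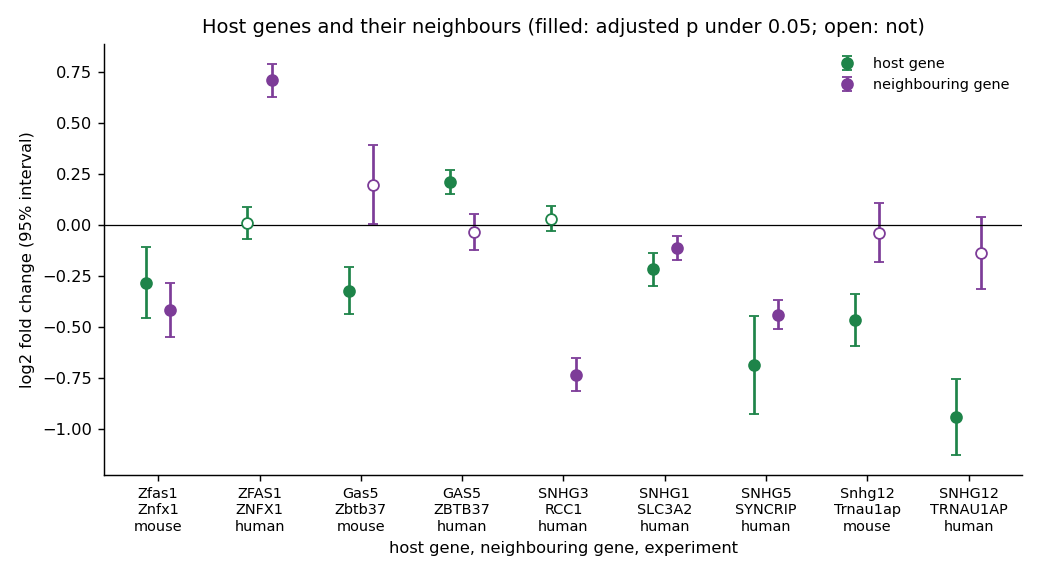
Log2 fold change with 95% interval of host genes (green) and neighbouring protein-coding genes (purple), named under each pair with the experiment; filled points passed the test. Zfas1 and Znfx1 both lie below 0 in the mouse, whereas human ZNFX1 lies at 0.71 with ZFAS1 at 0.01, and RCC1 lies at -0.73 with SNHG3 at 0.03.

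These overlaps bear on the counts, because whether reads were counted by strand is not given in the sources used here. Of the exonic bases of human ZFAS1, 40.1% also lie in exons of genes on the other strand (ZNFX1 among them), as do 36.3% for SNHG8 and 34.7% for SNHG1 (SLC3A2 among them). This share was 10.2% for human GAS5 (ZBTB37 among them), 2.64% for SNHG4 and 0.218% for SNHG12. Shares with same-strand genes, short genes inside the host included, were 14.2% for human SNHG1, 14.0% for SNHG4 (MATR3), 13.6% for SNHG5, 11.0% for SNHG3 (RCC1 among them) and 10.3% for SNHG12. In the mouse they were 19.6% for Snhg12 and for Zfas1, 17.8% for Gas5, 15.2% for Snhg8 and 12.6% for Snhg4, and the share on the other strand was 11.1% for Snhg6 and 4.31% for Zfas1, and 0 for the other 6 matched hosts. Reads from such bases cannot be assigned to one gene with certainty.

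Start sites were read for the hosts because pyrimidine-rich starts are often found in host transcripts. The windows are RefSeq sequences (GRCm38.p6) of 10 bases before the start and 20 from it onwards, on the gene's strand, with the longest run of C and T in capitals.
Gas5: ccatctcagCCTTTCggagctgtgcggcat
Snhg12: ttctcagTCCTTTCTCgcttcatccgcggt
Snhg8: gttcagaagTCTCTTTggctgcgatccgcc
Snhg5: gcggtgaaccgggctcgTTCTTTTacgacg
Snhg15: ctgtgaccgtaaCTTTaagcacacgtgagc

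They lie at chr1:161035156-161035185 (plus strand), chr4:132308668-132308697 (plus), chr3:123508317-123508346 (minus), chr9:88522878-88522907 (minus) and chr11:6528741-6528770 (minus). The run was 9 bases in Snhg12, a length reached in 7.11% of 32851 RefSeq windows, 7 in Snhg8 and Snhg5 (17.9%), 6 in Gas5 (28.7%) and 4 in Snhg15 (68.6%), where the median window had 4. Gas5 has another listed start with a run of 3. On the opposite strand, read as runs of A and G, the longest were 2 bases in Snhg12 (99.0% of windows reach this), 3 in Snhg5 and Snhg15 (90.7%), 4 in Gas5 (73.0%) and 5 in Snhg8 (50.8%). RefSeq had windows for 8 of the 10 names, and the runs of those not printed were 9 bases in Snhg1, 5 in Snhg3 and 4 in Zfas1. The run spans the annotated start in Snhg12, Snhg8 and this window of Gas5. Lengths of 4 occurred both in a host that fell, Zfas1, and in the one that rose, Snhg15.

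Other snoRNA hosts and the proteins that work with snoRNAs were read from lists. These were also chosen with earlier results known, so their shares are a description. Among 12 further noncoding hosts, 5 were tested in the mouse and 1, Snhg16, fell from 25.8 ± 2.60 CPM in WT to 19.3 ± 0.57 CPM in cKO (log2 fold change -0.41, edgeR adjusted p 0.00983), with a list median of -0.06 (0.0044 with scaling by total counts). That is 20% called lower, against 15.8% of all genes. Of the same list 8 were tested in the human cells, of which 6 rose (75.0%, against 25.3% of all genes) and 1 fell, with a median of 0.32. SNHG32 rose by 0.75 (edgeR adjusted p 1.91e-26), SNHG20 by 0.90 (6.74e-24) and SNHG16 by 0.33 (8.40e-16) on the log2 scale. SNHG16 was thus lower in the mouse knockout and higher in the human knockdown.

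Of 43 protein-coding hosts, most of them ribosomal protein and translation factor genes, 10 fell and 0 rose in the mouse (median -0.10). The share called lower was 23.3%, against 15.8% of all genes, and the share called in either direction was below the 36.5% of all genes. Rpl3 (log2 fold change -0.28, edgeR adjusted p 0.00119), Hspa8, a chaperone (-0.26, 0.00166), and Rpl37 (-0.24, 0.00459) had the smallest p. With scaling by total counts 6 fell and 2 rose, and with the GC offset 15 fell. Of the human genes 30 of the 43 rose (69.8%, against 25.3% of all genes) and 11 fell (25.6%, against 27.4%), with a median of 0.32. The 3 with the smallest p fell: EIF4G2, a translation initiation factor (-1.05, 8.12e-54), NCL, which encodes nucleolin (-0.64, 1.13e-41), and NOP56, a core protein of box C/D particles (-0.83, 2.29e-38).

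Of 19 genes for snoRNA-particle proteins and their assembly factors, 7 fell and 0 rose in the mouse (median -0.13), 36.8% called lower against 15.8% of all genes. Snu13, a box C/D core protein, was at -0.20 (edgeR adjusted p 0.00559), Gar1, a box H/ACA core protein, at -0.34 (0.00714), and Nolc1, a chaperone of these particles, at -0.17 (0.012). Gar1 was at -0.17 and not called with the GC offset (0.0869), and Nolc1 was not called with total counts (-0.10, 0.107), upper-quartile scaling (0.054), without WT replicate 1 (0.0521) or without cKO replicate 3 (0.0507). With scaling by total counts 2 fell and 1 rose, with upper-quartile scaling 3 fell and 0 rose, and with the GC offset 10 fell and 1 rose. The human counterparts gave 14 of 19 that fell (73.7%, against 27.4% of all genes) and 0 that rose (median -0.33), among them NOP56, NOLC1 (-0.69, 4.38e-35) and NOP58, another box C/D core protein (-0.76, 3.26e-30). With upper-quartile scaling 13 fell and 2 rose.

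Of 16 nonsense-mediated decay genes, 3 fell and 1 rose in the mouse (median -0.09), 18.8% called lower and 6.25% higher against 15.8% and 20.7% of all genes. Rnps1 (log2 fold change -0.53, edgeR adjusted p 0.0133) and Eif4a3 (-0.33, 0.0343), both of the exon junction complex, were lower, and Upf3b, a decay factor, was higher (0.23, 0.00935). The call of Rnps1 was lost without WT replicate 2 (0.0529) or cKO replicate 3 (0.0586), that of Eif4a3 without WT replicate 1 (0.113), WT replicate 2 (0.108), cKO replicate 2 (0.0729) or cKO replicate 3 (0.114), and that of Upf3b with DESeq2 (0.055). With scaling by total counts 3 fell and 3 rose, and with the GC offset 6 fell and 2 rose. In the human cells 9 fell (56.2%, against 27.4% of all genes) and 3 rose (median -0.10), with EIF4A3 at -0.52 (5.02e-16), SMG8 at -0.87 (2.64e-13) and SMG1, the kinase that acts on UPF1 in this pathway, at -0.25 (1.73e-12). With upper-quartile scaling 6 fell and 3 rose. All 4 lists were read against all-gene medians of 0.00059 in the mouse and 0.0052 in the human cells.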

How the data were processed

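Polyadenylated RNA was sequenced in 12 libraries. The submitters' processing notes name STAR, featureCounts and DESeq2 and the builds mm10 and hg38; strand setting and treatment of reads shared between genes are not given in the sources used here. The authors deposited raw counts per gene with exon lengths, and normalized values (signal) with their log2 ratios to control, checked to equal counts over 1 constant per library (largest relative deviation 4.97e-10) and used for symbols only. GENCODE M21 held 99.5% of the mouse identifiers, 99.4% of them at an identical position, so GRCm38 coordinates apply. Raw counts went into edgeR 4.0.16 under R 4.3.3 (filterByExpr, TMM scaling, quasi-likelihood test, two-sided, no covariate), separately in each experiment, and the difference as an interaction over all 12 libraries scaled within experiment. SE is the size of the log2 fold change divided by the root of F. CPM uses TMM-scaled library sizes. Intervals cover the fitted spread between libraries. Pairs of replicates differed beyond sampling noise, and all were kept. The chi-square per degree of freedom was 1.96 to 25.1 in the mouse and 1.54 to 1.71 in the human libraries. Biological coefficients of variation were 10.5% in the mouse and 2.23% in the human fit. The interaction fit used a shared spread for each gene across both experiments. Alternatives were RLE, upper-quartile and total-count scaling, 2 other count filters, DESeq2 1.42.0, a replicate block and leaving out each library; a GC offset (lowess span 0.2) and leaving out 2 mouse libraries were chosen after seeing the data. The test was also run on counts simulated from its own fitted spread. Those counts carried no GC-linked shift between libraries, so that run says nothing on such a shift. Named genes are the 10 hosts, up to 3 called genes with the smallest p per list, neighbours within 2000 bases, and DDX21; some neighbours with few counts are not described, and 1 neighbour is not reported here. The hosts and lists were chosen with earlier results of these data known.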

Additional observations from a re-analysis of the deposited data

Results flagged for a closer look

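The mouse and human effects differed in the interaction test for 6 of the 7 hosts measured in both experiments, each given as the mouse minus the human log2 fold change (edgeR's quasi-likelihood test, n = 3 libraries a group, 56.2% of matched genes called). SNHG8 differed by -1.61, from -1.08 in the mouse to 0.53 in the human cells. The mouse value was not called (edgeR adjusted p 0.0735), and its groups overlapped. SNHG15 differed by 0.68, with 0.34 in the mouse and -0.33 in the human cells. GAS5 differed by -0.53, with -0.32 and 0.21. SNHG12 differed by 0.48, with -0.46 and -0.94. SNHG4 differed by -0.34, with -0.43 and -0.08. ZFAS1 differed by -0.29, with -0.28 and 0.01, and was not called with scaling by total counts (edgeR adjusted p 0.121). Species, cell source and the way DDX21 was lowered change together between the experiments and cannot be told apart.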

How the results depend on the processing

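The number of hosts called was 6 in the mouse and 5 to 7 under 15 alternatives, 7 in the human cells and 6 to 7 under 13, and 6 for the difference and 5 to 6 under 17. The number of all genes called was 5442 in the mouse and ran from 3717 to 6987 under the alternatives. It was 10631 in the human cells (8931 to 10890) and 5799 for the difference (5348 to 6263). Calls that came or went are given with each host above. Signs turned for values near 0. Mouse Snhg6 was at -0.0526 with WT replicate 3 and cKO replicate 2 left out, and ran from -0.0073 to 0.100 when single libraries were left out. Human ZFAS1 was at -0.0174 with total counts and ran from -0.0141 to 0.0455 without single libraries. Mouse Trnau1ap was at 0.0296 with total counts and human ZBTB37 at 0.038 with upper-quartile scaling. The mouse minus human value of SNHG1, whose mouse gene was not matched by symbol, was 0.0425 with total counts and ran from -0.0868 to 0.0161 without single libraries. The cause of these turns was not tested.

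The correlations of the deviations of same-numbered libraries from their group means were 0.831, -0.709 and 0.0722 for replicates 1, 2 and 3 in the mouse and -0.0462, 0.013 and -0.00527 in the human experiment. The mouse replicate 1 libraries thus deviated together and the other pairs did not, so the numbers were not taken to pair samples. With a replicate block 7 mouse hosts were called, with Snhg8 added (edgeR adjusted p 0.0302), and 7 human hosts. All genes called then numbered 5165 in the mouse and 10601 in the human cells. Counting depth limits human SNHG5 and SNHG12 most among the human hosts.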
